A study of Homo sapiens with 9 samples.

Results

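RELB knockdown was compared with a non-silencing control in U2OS cells, a human osteosarcoma line. The comparison rests on 6 of the 9 libraries of the series: 3 from cells given siRNA against RELB (siRELB) and 3 from cells given non-silencing siRNA (siNS). The remaining 3 libraries came from the same line given siRNA against NFKB2 (siNFKB2), the gene named in the title of the series together with genes of homologous recombination. Each siRNA was used at 75 nM and RNA was taken 48 h after transfection. All groups shared the line, the medium, the transfection reagent and oligo-dT selection of RNA. No ligand or damaging agent is named for any group. The siRNA sequences, and the number of siRNAs per target, were not given in the sources used here. Of 44608 entries in each count table, 14815 genes passed a filter on low counts and were tested.

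RELB encodes a Rel family subunit of the transcription factor NF-kB. In resting cells it is held in the cytoplasm by the long precursor protein of NFKB2, which acts as an inhibitor. Receptors such as LTBR and CD40 stabilise the kinase NIK (gene MAP3K14), NIK activates IKK alpha (gene CHUK), and the precursor is then trimmed to the short NFKB2 product that enters the nucleus with RELB. TRAF and cIAP proteins keep NIK low until a receptor is engaged, and the canonical arm of the pathway uses RELA, REL and NFKB1.

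Library totals ran from 16330036 to 18987115 counts in siNS and from 17658315 to 19279572 in siRELB. Mitochondrial ribosomal RNA took 0.406%, 1.33% and 0.63% of counts in siNS replicates 1 to 3, and 0.379%, 0.653% and 0.856% in siRELB. The libraries numbered 1 stood apart in every group: the deviations of siNS replicate 1 and siRELB replicate 1 from their group means correlated at 0.59 across genes, which are not independent replicates. Results are therefore also given without the 3 libraries numbered 1, an alternative chosen after the data were seen. Of 7 osteosarcoma and mesenchymal markers, RUNX2, SPARC, COL1A1, VIM, CD44 and ALPL were detected and TWIST1 was listed at 0. Of 12 blood markers, 9 stayed below 1 CPM (a counts-per-million value on scaled library totals) in the 6 libraries, and 4 of these were at 0. CD68 averaged 19.3 CPM in siNS and 14.9 CPM in siRELB, HBB 5.92 and 5.73 CPM, and ITGAM 1.2 and 0.987 CPM. Of 12 epithelial markers, 7 stayed below 1 CPM, including CLDN7 at 0, while KRT8, KRT18 and CLDN4 were present. Of 8 endothelial markers, 4 stayed below 1 CPM and EMCN was at 0. ERG averaged 7.77 CPM in siNS and 7.78 CPM in siRELB, while PECAM1, VWF and TEK reached at most 1.75 CPM.

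RELB itself, at chr19:45001430-45038198 (GRCh38, GENCODE 29), fell in the siRELB libraries. It was measured at 17.1, 30.3 and 34.1 CPM in siNS replicates 1 to 3 and at 2.66, 4.66 and 5.36 CPM in siRELB. The lowest control library lay above the highest knockdown library, and the siRELB libraries held 9.79%, 17.1% and 19.7% of the control mean. The group means were 27.2 ± 8.92 and 4.23 ± 1.40 CPM (SD, n = 3 each), a log2 fold change of -2.69 with a standard error of 0.369 (adjusted p = 0.00881). Adjusted p-values throughout are from edgeR's quasi-likelihood test over the 14815 genes, and "rose" or "fell" means an adjusted p under 0.05. Without the libraries numbered 1 the change was -2.68 (adjusted p = 1.78e-06). With siNS replicate 3 left out it was -2.48 (adjusted p = 0.0575), and with siRELB replicate 2 left out -2.76 (adjusted p = 0.0591), so the call was lost without either library.

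None of the other 4 NF-kB subunit genes passed the test. NFKB2, the partner of RELB, was measured at 80.7, 126 and 117 CPM in siNS and at 117.5, 169 and 168 CPM in siRELB. Of the siRELB libraries 2 lay above each control and replicate 1 lay among the controls (log2 fold change 0.49, SE 0.535, adjusted p = 0.695). Each siRELB library was above the siNS library of its own number. The spread estimate includes the siNFKB2 libraries, where NFKB2 was itself the target and ran from 5.26 to 48.4 CPM. In the fit on the 6 compared libraries the adjusted p was 0.285. With replicate number as a block it was 0.0109 over these 6 and 0.369 over all 9 libraries. NFKB1, which encodes the precursor of the canonical arm, was higher in each siRELB library, at 78.1 to 81.6 CPM against 58.8 to 70.9 CPM (0.28, SE 0.130, adjusted p = 0.319). RELA was at 134 to 143 CPM against 127 to 142 CPM (0.06, SE 0.111, adjusted p = 0.844). REL, whose exons share 43.3% of their length with another annotated gene on the same strand, overlapped between groups (0.26, adjusted p = 0.654), and it passed without the libraries numbered 1 (0.54, adjusted p = 0.0365).

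**Figure D1:**
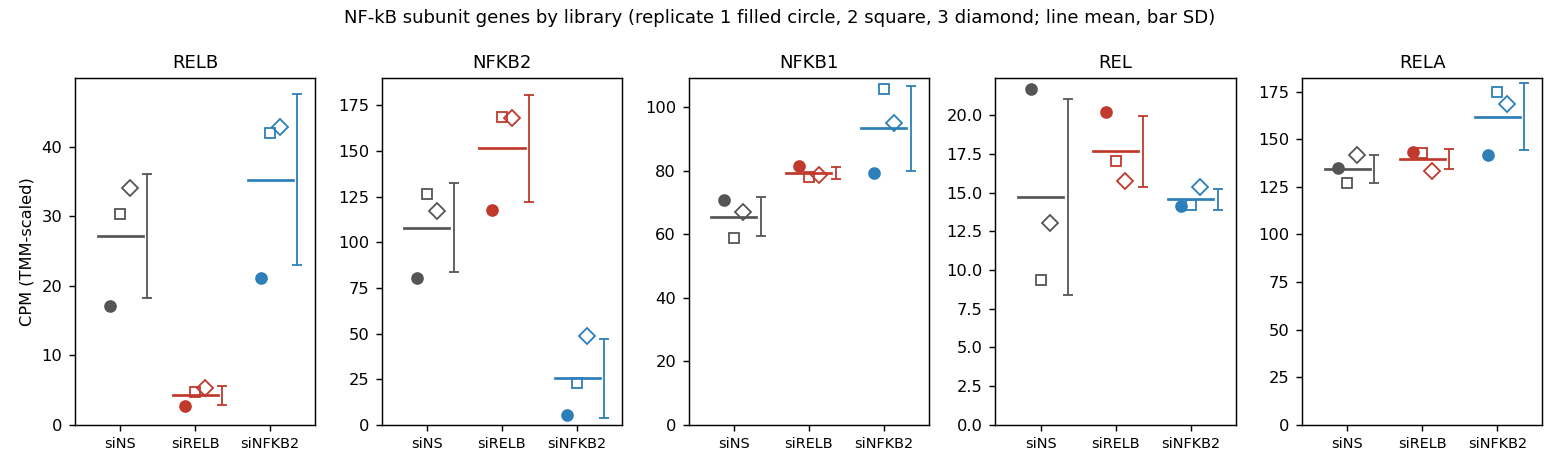
CPM of the 5 NF-kB subunit genes in each library, with the group mean as a line and 1 SD as a bar (n = 3). The siRELB libraries sit at 2.66 to 5.36 CPM for RELB, below the control minimum of 17.1 CPM, while their NFKB2 values reach 169 CPM.

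In all, 299 genes including RELB were called, 2.02% of those tested. Of these, 179 were higher (1.21% of genes tested) and 120 lower (0.81%) after RELB knockdown. The median called gene rose by 0.96 or fell by 0.83 on the log2 scale, 83 rose at least 2-fold and 47 fell at least 2-fold. Over all genes the median log2 fold change was -0.02. All 299 called genes had no overlap between the 3 siRELB and the 3 siNS libraries, but 3339 genes in all (22.5%) had none, so separation alone is common here. Of the called genes, 54 averaged under 5 CPM over the 6 libraries and were left out of the largest changes described here.

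The number of calls depended strongly on single libraries. It was 15 without siRELB replicate 2, 30 without siRELB replicate 3, 19 without siNS replicate 3 and 60 without siNS replicate 2, and 1819 without siNS replicate 1. Without the 3 libraries numbered 1 it was 3390, and 297 of the 299 genes were among them. The 299 genes kept their direction in each of these fits. Calls that held in each of the 9 leave-one-out fits numbered 13. Among them were CEMIP2, DSP, MFAP5, MOB3B and SCEL, which rose, and CCDC144NL-AS1, CNDP2, GFM2, HMGA2, PGAP2, SCML1 and YBX3, which fell. RELB was not among the 13. Of the genes named by the rule given under processing, 48 besides RELB were called. All 48 kept their call under DESeq2, with a replicate block over 9 or 6 libraries, and without the 3 libraries numbered 1. Without siRELB replicate 2, 14 of the 48 kept it, and without siNS replicate 3, 15 did. None of the 48 changed direction in these fits.

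**Figure D2:**
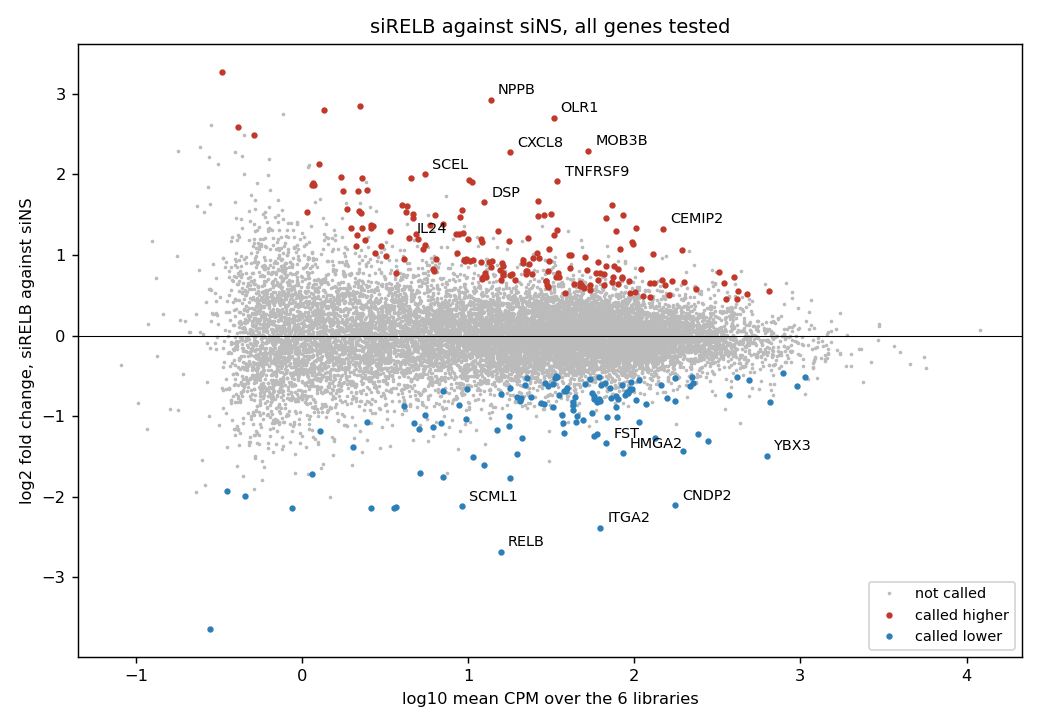
Log2 fold change of each of the 14815 tested genes, siRELB against siNS, over the log10 of its mean CPM in the 6 libraries. The 179 genes called higher and 120 called lower are coloured, and the tested genes span -3.64 to 3.27.

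The fall with the smallest adjusted p was in CNDP2, a cytosolic dipeptidase. It was measured at 273, 279.8 and 302 CPM in siNS and at 78.9, 56.4 and 63.3 CPM in siRELB. Its groups were far apart, and the log2 fold change was -2.10 with a standard error of 0.138 (adjusted p = 3e-04, the smallest of all genes). HMGA2, an architectural chromatin protein, was at 132, 102 and 141 CPM in siNS and at 48, 40.6 and 47.1 CPM in siRELB (-1.46, SE 0.147, adjusted p = 0.0024). YBX3, a cold shock domain protein that binds RNA and DNA, went from 841, 895 and 1036 CPM to 392.1, 303 and 289.9 CPM (-1.49, SE 0.161, adjusted p = 0.00363). In both genes the lowest siNS library was above 2 times the highest siRELB library. The related HMGA1 and YBX1, named here after their values were seen, did not pass (-0.16 and -0.26, adjusted p = 0.467 and 0.251).

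Other stable falls were GFM2, a mitochondrial ribosome recycling factor, PGAP2, which remodels GPI anchors, SCML1, a Polycomb-related protein, and the long noncoding RNA CCDC144NL-AS1. GFM2 was at 92.3, 77.1 and 82.1 CPM in siNS and at 39.5, 33.8 and 34.7 CPM in siRELB (-1.22, adjusted p = 0.0024). Strand use in counting is not known, so reads from the opposite strand at GFM2 may be included. CCDC144NL-AS1 was at 77.7, 79.4 and 85.3 CPM against 35.7, 33.8 and 32.5 CPM (-1.25, SE 0.105, adjusted p = 0.00171). SCML1 was at 19.8, 10.1 and 14.7 CPM against 3.94, 2.76 and 3.56 CPM (-2.12, adjusted p = 0.00516). All 4 genes separated the groups, PGAP2 from 14.4 to 17.2 CPM down to 5.17 to 6.07 CPM (-1.51, adjusted p = 0.00221).

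The remaining large falls lost their call when single libraries were left out. ITGA2, the collagen-binding integrin alpha chain, was at 125, 84.2 and 104.6 CPM in siNS and at 33.3, 13 and 13.5 CPM in siRELB. The siRELB library numbered 1 was the least reduced, and the change was -2.39 with a standard error of 0.350 (adjusted p = 0.0114). TXNIP, a thioredoxin-binding protein that restrains glucose uptake, showed the same order, from 10.1 to 11.9 CPM down to 5.02, 2.39 and 2.19 CPM (-1.76, adjusted p = 0.0186). ADM, which encodes the vasodilator peptide adrenomedullin, was at 15.6, 36.8 and 30.1 CPM against 7.48 to 8.48 CPM (-1.77, adjusted p = 0.0188). Here it was the control replicate 1 that lay closest to the other group. IL17RD, a feedback inhibitor of growth factor signalling, fell by 1.71 on the log2 scale, UBE2F, a NEDD8-conjugating enzyme, by 1.47, KDELR1, which returns proteins to the endoplasmic reticulum, by 1.43, FST (follistatin) by 1.34 and the G protein subunit GNAI2 by 1.31. UBBP4 fell by 1.61, but it is annotated as a pseudogene with close ubiquitin copies that can share reads, and 16.2% of UBE2F is shared with a read-through gene.

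Without siRELB replicate 2, the adjusted p was 0.0664 for ITGA2, 0.113 for TXNIP, 0.11 for ADM, 0.0593 for IL17RD, 0.0591 for UBE2F, 0.0783 for UBBP4 and 0.0561 for each of KDELR1, FST and GNAI2. Without siNS replicate 3 it was 0.0687 for ITGA2, 0.103 for TXNIP, 0.114 for ADM, 0.0515 for IL17RD, 0.0551 for UBE2F, 0.0734 for UBBP4 and 0.0506 for GNAI2. Without siRELB replicate 3 it was 0.0697 for ITGA2, 0.105 for TXNIP, 0.104 for ADM and 0.0585 for IL17RD and UBE2F. ADM was lost also without siNS replicate 2 (0.0596) or siRELB replicate 1 (0.0594), and TXNIP without siNS replicate 2 (0.0573) or in the fit on the 6 compared libraries (0.0502). Without the libraries numbered 1, all 9 fell, from -1.48 for FST to -2.83 for ITGA2.

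NPPB had the largest rise among called genes averaging at least 5 CPM. The gene, which encodes the natriuretic peptide BNP, was measured at 2.26, 5.06 and 2.25 CPM in siNS and at 12.4, 29.2 and 30.9 CPM in siRELB. The siRELB replicate 1 was the lowest of its group but above each control (log2 fold change 2.93, SE 0.440, adjusted p = 0.0122). OLR1, the receptor for oxidised low-density lipoprotein, was at 11.3, 6.57 and 8.07 CPM against 58.4, 56.9 and 54.3 CPM (2.7, SE 0.314, adjusted p = 0.00516). MOB3B, of the MOB family of kinase regulators, was at 24.9, 15.1 and 13.5 CPM against 92.1, 83.3 and 87.7 CPM (2.30, SE 0.224, adjusted p = 0.00236). For OLR1 and MOB3B the siRELB libraries lay close together, and the groups did not overlap.

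SCEL and DSP kept their rise in each leave-one-out fit, and CDH1 did not. SCEL (sciellin, a cornified envelope protein) rose from 2.37, 1.94 and 2.25 CPM to 8.14, 9.22 and 9.03 CPM (2.00, SE 0.199, adjusted p = 0.00238). DSP (desmoplakin, which ties desmosomes to intermediate filaments) rose from 7.36, 6 and 4.61 CPM to 19.9, 18.3 and 18.5 CPM (1.66, SE 0.186, adjusted p = 0.00437). CDH1 (E-cadherin), the only called member of the 5 epithelial markers tested, was at 1.21 to 1.69 CPM in siNS and at 3.20 to 3.53 CPM in siRELB (1.18, adjusted p = 0.0352). All 3 genes were low but separated the groups. The summed level of the 12 epithelial markers, set mostly by KRT8 and KRT18, was 637 to 942 CPM in siNS and 642 to 729 CPM in siRELB, and the median of the 5 tested was -0.02. In bulk RNA, more cells with CDH1 and more RNA per cell cannot be told apart, and the part of such cells in these results was not tested. The call of CDH1 was lost in the fit on the 6 libraries (adjusted p = 0.0542) and without siNS replicates 2 or 3 or any 1 siRELB library (0.0879 to 0.19).

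CEMIP2, a cell surface hyaluronidase, rose from 97.6, 79.2 and 78.7 CPM to 189, 227 and 224.5 CPM (1.33, SE 0.126, adjusted p = 0.00221). Its groups did not overlap, and it kept its call in each leave-one-out fit. The other large rises were GBP1 (1.93), an interferon-inducible GTPase, TMEM255A (1.91), the microtubule-associated kinase DCLK1 (1.67), DESI2 (1.62), the potassium channel regulator ABCC9 (1.56), the actin-associated PDLIM1 (1.5), SMIM15 (1.5) and LOC441666 (1.5), with adjusted p from 0.00584 for LOC441666 to 0.0388 for TMEM255A. GBP1 was at 5.47, 3.5 and 3.51 CPM in siNS and at 15.8, 17 and 15 CPM in siRELB.

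Among these rises OLR1 was lost without siNS replicate 3 (adjusted p = 0.0506), and NPPB without siNS replicate 3 (0.103), siRELB replicate 2 (0.0707) or siRELB replicate 3 (0.0697). Without siNS replicate 3 the adjusted p was 0.0687 for GBP1, 0.216 for TMEM255A, 0.126 for DCLK1, 0.155 for DESI2, 0.0797 for ABCC9, 0.0691 for PDLIM1, 0.119 for SMIM15 and 0.0599 for LOC441666. Without siRELB replicate 2 it was 0.0561, 0.138, 0.0731, 0.0893, 0.0591, 0.0591, 0.0738 and 0.0522 in the same order. Without siRELB replicate 3 the same genes apart from GBP1 and LOC441666 were also lost (0.0585 to 0.132), without siNS replicate 2 TMEM255A, DCLK1 and DESI2 (0.0571 to 0.0937), and without siRELB replicate 1 TMEM255A (0.107) and DESI2 (0.0594). In the fit on the 6 libraries TMEM255A (0.1), DCLK1 (0.0588) and SMIM15 (0.0541) did not pass, and TMEM255A was lost also without siNFKB2 replicates 2 (0.0836) or 3 (0.0709). With the libraries numbered 1 left out, all 10 rose, from 1.57 for PDLIM1 to 3.06 for NPPB.

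**Figure D3:**
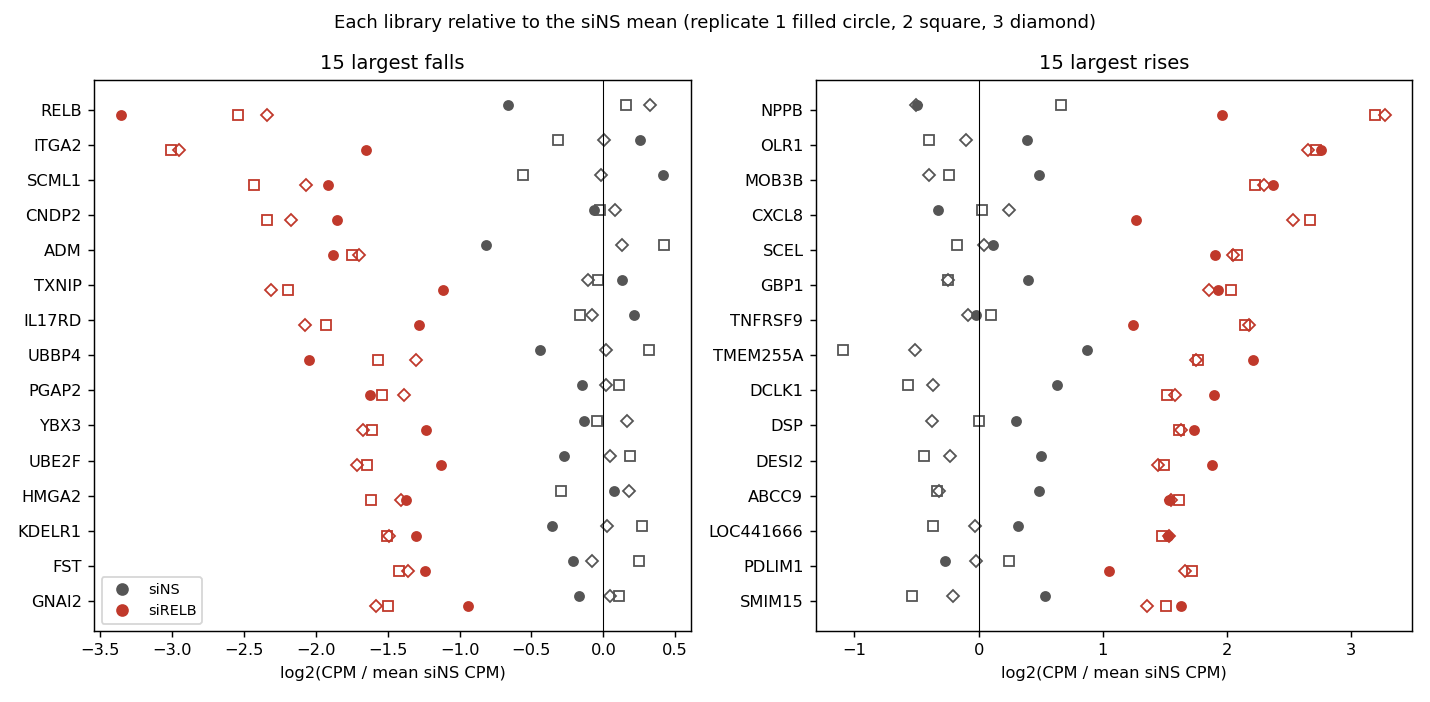
The 15 largest falls and 15 largest rises among called genes averaging at least 5 CPM, each library drawn as the log2 ratio of its CPM to the siNS mean, with replicates 1, 2 and 3 as circle, square and diamond. For ITGA2, TXNIP and NPPB the siRELB circle lies nearest to the controls.

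Genes of the NF-kB pathway were then taken by role, and other gene lists after them. Over all genes tested, for each list to be read against, 2.02% were called, 2492 (16.8%) had an unadjusted p under 0.05, 7701 (52.0%) had a negative log2 fold change and the median was -0.02. Of 6 tested ligands of the TNF superfamily, none was called by edgeR (1 at an unadjusted p under 0.05, and 0 by DESeq2), with a median of -0.44. CD70 was at 57, 118 and 95 CPM in siNS and at 45.5, 70.5 and 66.6 CPM in siRELB, and TNFSF9 (4-1BB ligand) at 35.9, 65.7 and 62.9 CPM against 30.9, 40.8 and 36.2 CPM. For both the groups overlapped through siNS replicate 1 (-0.56 and -0.61, adjusted p = 0.298 and 0.236), and without the libraries numbered 1 both passed (-0.63 and -0.74, adjusted p = 0.0038 and 7.73e-04).

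Of 13 tested TNF receptors 1 was called and the median was -0.17. TNFRSF9 (4-1BB, the receptor for TNFSF9) was measured at 14.2, 15.5 and 13.6 CPM in siNS and at 34.2, 63.7 and 65.3 CPM in siRELB. The controls were tight, siRELB replicate 1 was the lowest of its group, and the groups did not overlap (1.91, SE 0.304, adjusted p = 0.0153). The call was lost without siNS replicates 2 (0.0573) or 3 (0.116) or siRELB replicates 2 (0.0835) or 3 (0.0832). TNFRSF11B (osteoprotegerin, the decoy receptor of RANKL) was at 28.9 to 34.9 CPM against 17.0 to 18.6 CPM and missed the threshold (-0.88, adjusted p = 0.0757). TNFRSF21, added with its values known, was higher in siRELB without overlap and missed it more narrowly (0.50, SE 0.112, adjusted p = 0.0527). LTBR and CD40, receptors that feed the RELB arm and are named for that role with their values known, gave -0.08 (adjusted p = 0.874) and -0.26 (adjusted p = 0.524).

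Of 20 TRAF, cIAP and IKK signalling genes 1 was called and the median was 0.06. TBK1, an IKK-related kinase, fell from 66.3, 60.7 and 64.2 CPM to 46.7, 42 and 42.5 CPM (-0.54, SE 0.105, adjusted p = 0.0318), with no overlap. That call was lost in the fit on the 6 libraries (0.0726), with no filter (0.0515), and in 7 of the 9 leave-one-out fits (0.0575 to 0.185), and 14.7% of its exonic length overlaps another gene on the opposite strand. MAP3K14, the NIK gene, was at 31.6, 39.7 and 35.2 CPM against 49.3, 54.8 and 50.3 CPM, without overlap, and missed the threshold (0.54, adjusted p = 0.0622). CHUK (0.53, adjusted p = 0.236) and TRAF3 (0.11, adjusted p = 0.729) did not pass either, and these 3 are named for their role. Of 12 inhibitors none was called by edgeR (2 at an unadjusted p under 0.05, and 1 by DESeq2), with a median of 0.11. CYLD, a deubiquitinase that restrains the pathway, was at 56.5 to 82.9 CPM against 88.4 to 114 CPM (0.54, adjusted p = 0.121) and TNIP3 at 0.25 to 0.736 CPM against 0.711 to 1.25 CPM (1.22, adjusted p = 0.192). Without the libraries numbered 1 both passed (0.59 and 1.72, adjusted p = 0.00329 and 0.0318).

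Of 50 tested genes in 3 lists of NF-kB targets 2 were called (4.0%, against 2.02% of all genes). Of 9 tested chemokines 1 was called (median 0.24) and of 17 tested interleukins and colony stimulating factors 1 was called (median 0.13). CXCL8 (interleukin 8, which attracts neutrophils) was measured at 4.84, 6.19 and 7.19 CPM in siNS and at 14.6, 38.6 and 35 CPM in siRELB. The groups did not overlap, with siRELB replicate 1 again the lowest of its group (2.27, SE 0.454, adjusted p = 0.0348). IL24, a cytokine of the interleukin 10 family, was at 3.26, 2.38 and 2.31 CPM against 6.1, 5.75 and 6.57 CPM (1.21, SE 0.170, adjusted p = 0.00919). CXCL8 was lost without siNS replicates 2 (0.117) or 3 (0.164), siRELB replicates 2 (0.159) or 3 (0.15) or siNFKB2 replicates 2 (0.0638) or 3 (0.055). IL24 was lost without siNS replicates 2 (0.0516) or 3 (0.0822) or siRELB replicates 2 (0.0561) or 3 (0.0651). Of 24 tested adhesion and other induced genes none was called by edgeR (2 at an unadjusted p under 0.05, and 0 by DESeq2), with a median of 0.12. PLAU, the urokinase protease, was at 48.4, 90.5 and 72.3 CPM against 36.2, 42.3 and 46.6 CPM (-0.76, adjusted p = 0.294), and it passed without the libraries numbered 1 (-0.87, adjusted p = 7.18e-04). The list of 24 tested interferon-stimulated genes had no call by edgeR (5 at an unadjusted p under 0.05, and 2 by DESeq2). GBP1, described above, is not in that list. Of the 24, 16 were positive and 8 negative. The members with the smallest adjusted p, IFI44 and the lowly expressed IFI44L, were among the negative ones (-0.97 and -1.46, adjusted p = 0.059 and 0.137). Without the libraries numbered 1 the list had 6 higher and 3 lower members.

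Promoters of the genes that rose were read for letters that NF-kB sites commonly hold. The RefSeq table (GRCh38.p14) gave 300 bases, 250 before to 50 after the gene start, for 11324 of the 14815 tested genes, and both strands were searched for GGNNTTTCC and GGGNNNTTCC, which can match at the same place. At least 1 of the motifs was in 22 of 144 promoters of genes called higher (15.3%), in 7 of 88 of genes called lower (7.95%), in 11.6% of all tested genes with a promoter, in 18 of 50 (36%) genes of the lists of subunits, inhibitors, chemokines, interleukins and other induced genes, and in 10.5% of the 27305 promoters in the table. The windows below are those of rises described above, with NFKB1, which did not pass, for comparison. Each is on the strand of its gene and the matched letters are in capitals.
CXCL8, plus strand, chr4:73740468-73740497: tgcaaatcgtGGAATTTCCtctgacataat
TNFRSF9, minus strand, chr1:7940894-7940923: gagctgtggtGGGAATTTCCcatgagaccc
GBP1, minus strand, chr1:89065251-89065280: tcatcaatgaGGAAATCCCagccctacaac
DCLK1, minus strand, chr13:36132090-36132119: atgagctcatGGGGCTTTCCaccgcagacc
MOB3B, minus strand, chr9:27529928-27529957: ctgcaaggctGGAAGCCCCCttagactggt
NFKB1, plus strand, chr4:102501300-102501329: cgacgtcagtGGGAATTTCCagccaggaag
The match in CXCL8 begins 91 bases before the start, that in TNFRSF9 74 bases before and that in NFKB1 49 bases before. In GBP1 and MOB3B the motif reads on the other strand, 62 and 133 bases before the start. The letters in TNFRSF9 and NFKB1 are the same 10 bases, and the expression differences of these genes were 1.91 and 0.28. A match is a stretch of letters, and no binding was measured here.

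The extracellular matrix list moved in both directions: of 42 tested genes 2 rose and 3 fell, with a median of 0.01. MFAP5, a microfibril protein, rose from 63.9, 68 and 52.1 CPM to 125, 138 and 141 CPM (1.13, SE 0.124, adjusted p = 0.00363), and COL12A1, a fibril-associated collagen, from 338 to 354 CPM up to 451 to 507 CPM (0.46, adjusted p = 0.0401). FN1 (fibronectin) was at 1189, 1352.5 and 1233 CPM in siNS and at 867, 896 and 880.4 CPM in siRELB (-0.51, adjusted p = 0.0388). THBS1 (thrombospondin) fell from 1108 to 1235 CPM down to 706 to 831.5 CPM (-0.62, adjusted p = 0.0273) and TNC (tenascin) from 253 to 283 CPM down to 153 to 201 CPM (-0.59, adjusted p = 0.0383). These 5 genes had no overlap between groups. Apart from MFAP5, they lost their call without siNS replicate 2 or 3 and without siRELB replicate 2 or 3 (adjusted p 0.0573 to 0.227), and COL12A1 and TNC also in the fit on the 6 libraries (0.075 and 0.0818). COL12A1, FN1 and TNC were lost without siRELB replicate 1 (0.0698, 0.113 and 0.104) and siNFKB2 replicate 2 (0.0644, 0.053 and 0.0649), COL12A1 and TNC without siNFKB2 replicate 3 (0.0641 and 0.0581), and COL12A1 with no filter (0.0826).

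Of 19 tested integrins 2 fell and none rose, with a median of -0.28. Beside ITGA2, ITGB8, a beta chain that activates latent TGF-beta, was at 39.1, 24 and 26.5 CPM in siNS and at 16.9, 10.2 and 9.96 CPM in siRELB. The libraries numbered 1 were the highest of both groups, and the groups did not overlap (-1.27, SE 0.271, adjusted p = 0.0432). The call was lost in the fit on the 6 libraries (0.0786) and without siNS replicates 2 or 3, siRELB replicates 2 or 3 or siNFKB2 replicates 2 or 3 (0.0665 to 0.216). Of 22 TGF-beta genes FST was the one called (median 0.01). None of 16 matrix metalloproteinases and inhibitors was called by edgeR (7 at an unadjusted p under 0.05, and 2 by DESeq2); TIMP2 was at 230.1 to 267 CPM against 318 to 332 CPM (0.37, adjusted p = 0.0937) and MMP24 at 18.4 to 27.1 CPM against 36 to 47.4 CPM (0.82, adjusted p = 0.111).

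Of 15 tested early response factors 1 was called, and 11 (73.3%) were negative, against 52.0% of all genes. Their median was -0.39. Leaving out siNS replicates 1, 2 and 3 in turn gave -0.55, -0.24 and -0.12. EGR1, an immediate early transcription factor, fell from 32.5, 33.6 and 39.1 CPM to 20.7, 18.7 and 19.5 CPM (-0.84, SE 0.125, adjusted p = 0.0122). DUSP1, a phosphatase that switches off MAP kinases, was the 1 call among 12 feedback genes and rose from 94.5 to 98.7 CPM up to 143 to 157 CPM (0.65, SE 0.098, adjusted p = 0.0122). Neither gene overlapped between groups. EGR1 was lost without siNS replicate 3 (0.0818) or siRELB replicates 2 (0.0903) or 3 (0.0862), and DUSP1 also without siNS replicate 2, with 0.0545, 0.108, 0.0893 and 0.0673 for siNS replicates 2 and 3 and siRELB replicates 2 and 3. Without the libraries numbered 1, 9 of the 15 early response factors were lower and 1 was higher.

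Homologous recombination repairs double-strand breaks from a sister copy. Of 51 tested genes of this pathway none was called by edgeR, against 2.02% of all genes, and 1 was called by DESeq2. An unadjusted p under 0.05 was found for 4 (7.84%, against 16.8% of all genes), 22 were positive and 29 negative, and the median was -0.02, as over all genes. The members with the smallest adjusted p were ZSWIM7, a SWIM-domain protein of the recombination machinery, at 9.78, 15.8 and 14.3 CPM in siNS and 7.74, 8.84 and 9.36 CPM in siRELB (-0.62, adjusted p = 0.133), and POLD1, the catalytic subunit of DNA polymerase delta, at 63.4, 110 and 120 CPM against 59.1, 66.3 and 62.6 CPM (-0.64, adjusted p = 0.172). For POLD1 the groups overlapped through siNS replicate 1. BRCA1 and BRCA2, named for their role, were at 0.03 and 0.25 (adjusted p = 0.939 and 0.686). With the libraries numbered 1 left out, 5 members were higher and 4 lower. Fanconi anaemia genes (22 tested, median -0.06) and end joining genes (20 tested, median -0.04) had no call by edgeR either, with 6 and 5 members at an unadjusted p under 0.05 and 1 each by DESeq2, and without the libraries numbered 1 they had 5 and 4 lower members.

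Of 44 tested G1/S genes none was called by edgeR (4 at an unadjusted p under 0.05, and 2 by DESeq2), 39 (88.6%) were negative, against 52.0% of all genes, and the median was -0.15. CCNE1 (cyclin E) was at 105, 123 and 117 CPM in siNS and at 82, 77.9 and 80.9 CPM in siRELB (-0.52, adjusted p = 0.115), and MCM7, part of the replicative helicase, at 709 to 817 CPM against 544 to 628 CPM (-0.36, adjusted p = 0.122). Both separated the groups, and both passed without the libraries numbered 1 (adjusted p = 0.00263 and 0.0219). Of 53 G2/M genes 2 fell, 36 (67.9%) were negative and the median was -0.10. AURKA (Aurora kinase A) fell from 224, 226 and 219 CPM to 139, 124 and 119 CPM (-0.81, SE 0.118, adjusted p = 0.0111), and BUB3, of the spindle checkpoint, from 201 to 218 CPM down to 141 to 147.5 CPM (-0.53, adjusted p = 0.0388). AURKA was lost without siNS replicate 3 (0.0687) or siRELB replicates 2 (0.0861) or 3 (0.0862), and BUB3 in the fit on the 6 libraries (0.0531) and in 7 leave-one-out fits (0.0651 to 0.212). Without the libraries numbered 1, 8 G1/S genes were lower, and 9 G2/M genes were lower with 2 higher.

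Of 41 tested ribosomal protein genes all had a negative log2 fold change, with a median of -0.36 (-0.21 without siNS replicate 2), and 2 fell. An unadjusted p under 0.05 was found for 17 (41.5%, against 16.8% of all genes), and 4 were lower by DESeq2. In siRELB replicates 1, 2 and 3 the median against the siNS mean was -0.49, -0.21 and -0.28. RPS12 was at 653, 1049.9 and 796 CPM in siNS and at 469.5, 479 and 464 CPM in siRELB (-0.82, adjusted p = 0.0318), and RPL5 at 864, 965 and 906 CPM against 690.0, 658 and 628.5 CPM (-0.47, adjusted p = 0.0393). Both were lost in the fit on the 6 libraries (0.0601 and 0.0542), RPL5 also with no filter (0.0557), and each was lost in 6 leave-one-out fits (0.054 to 0.217), while 25 were lower without the libraries numbered 1. Ribosomal protein genes have many processed copies that can share reads, so single members are uncertain. Oxidative phosphorylation genes (27 tested) had 24 negative members, a median of -0.17 and no call by edgeR (5 at an unadjusted p under 0.05, and 3 by DESeq2). Cholesterol synthesis genes (26 tested) had 17 positive members, a median of 0.15 and no call by edgeR (9 at an unadjusted p under 0.05, and 5 by DESeq2). HMGCS1, an early enzyme of that pathway, was at 563, 409 and 459 CPM against 702.5, 763.5 and 769 CPM (0.64, adjusted p = 0.0786), without overlap, and it passed without the libraries numbered 1 (0.82, adjusted p = 5.42e-04). Of 32 glycolysis and hypoxia genes ADM alone was called (median -0.20). Over the 37 lists, 16 had at least 1 called member and 21 had none.

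**Figure D4:**
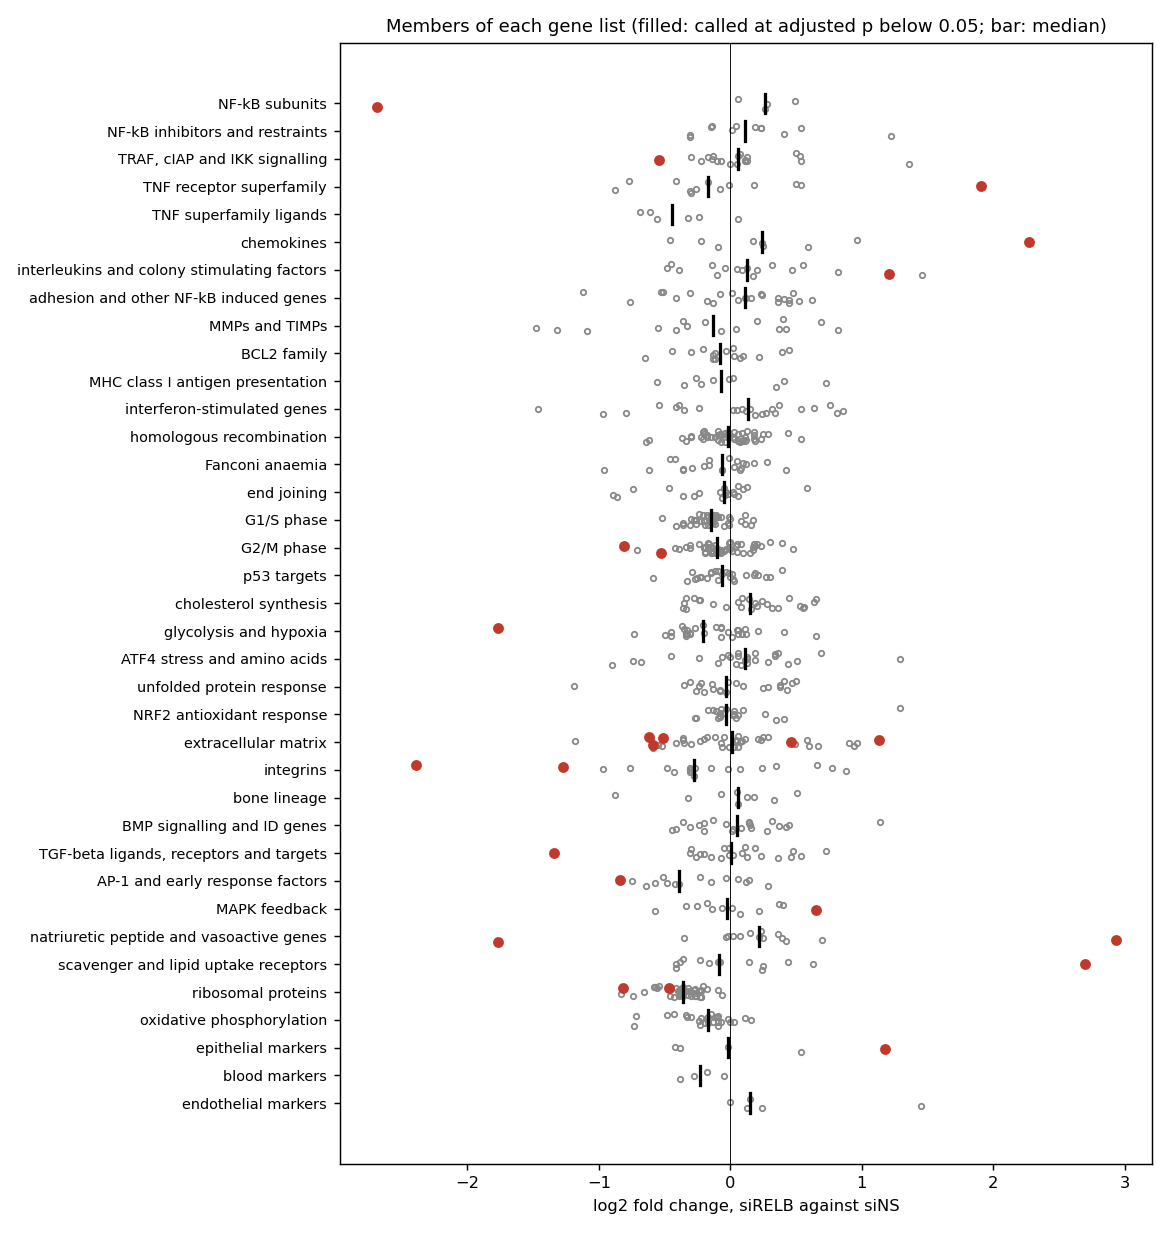
Log2 fold change, siRELB against siNS, of the tested members of each of the 37 gene lists, with called members filled and the list median as a bar. The 41 ribosomal protein genes lie left of 0, and the 51 homologous recombination genes lie around 0 with none filled.

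The siNFKB2 libraries share the siNS controls, so each comparison is given side by side and differences between the knockdowns were tested directly. Against siNS, 26.1% of tested genes were called after NFKB2 knockdown, and 26.6% differed between siRELB and siNFKB2. The NFKB2 knockdown was uneven: NFKB2 was at 5.26, 22.9 and 48.4 CPM in siNFKB2 replicates 1 to 3, against a siNS mean of 108.1 CPM. Its log2 fold change against siNS was -2.09 (SE 0.564, adjusted p = 0.021). RELB was at 21.1, 41.9 and 42.9 CPM in siNFKB2, above each siRELB library. Of the 179 genes higher in siRELB, 82 were also higher than in siNFKB2, 20 were lower than in siNFKB2, and 77 did not pass. Of the 120 lower genes, 77 were also lower than in siNFKB2, 7 were higher and 36 did not pass. The siRELB libraries that chose these genes also enter the direct test, so the choice itself favours differences in the same direction. The 26.6% over all genes counts either direction, so these counts do not measure how many changes are particular to RELB knockdown.

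NPPB was at 0.322, 0.928 and 0.993 CPM in siNFKB2, below the controls, while siRELB was above them (log2 fold changes against siNS -2.10 and 2.93, direct difference 5.03, SE 0.522, adjusted p = 2.84e-04). PDLIM1 had the same arrangement, at 4.29 to 5.96 CPM in siNFKB2, 13.7 to 19.6 CPM in siNS and 34.1 to 54.2 CPM in siRELB (direct difference 3.16, adjusted p = 1.03e-04). ITGA2 was arranged the other way, at 163, 261 and 219 CPM in siNFKB2 and lowest in siRELB (direct difference -3.42, adjusted p = 3.14e-04), as was IL17RD, at 15.5 to 19.7 CPM in siNFKB2 and 1.86 to 3.23 CPM in siRELB (-2.83, adjusted p = 1.34e-04). These 4 genes were called against siNS in opposite directions in the 2 knockdowns. CNDP2 (253 to 293 CPM in siNFKB2) and MOB3B (12.4 to 17.1 CPM) did not pass against siNS after NFKB2 knockdown (-0.05 and -0.30, adjusted p = 0.822 and 0.347) and differed from siRELB (-2.05 and 2.60, adjusted p = 6.88e-05 and 1.42e-04).

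Other genes moved the same way in both. OLR1 was at 35.2, 88.8 and 61.6 CPM in siNFKB2, spanning the siRELB libraries (direct difference -0.13, SE 0.287, adjusted p = 0.773). CXCL8 was at 41, 118 and 117 CPM, higher than in siRELB (-1.64, adjusted p = 0.0171), and IL24 at 50.6, 56.5 and 48 CPM, above each siRELB library (-3.07, SE 0.160, adjusted p = 2.89e-05). TXNIP was at 0.993 to 1.5 CPM, lower than in siRELB (1.38, adjusted p = 0.0136).

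**Figure D5:**
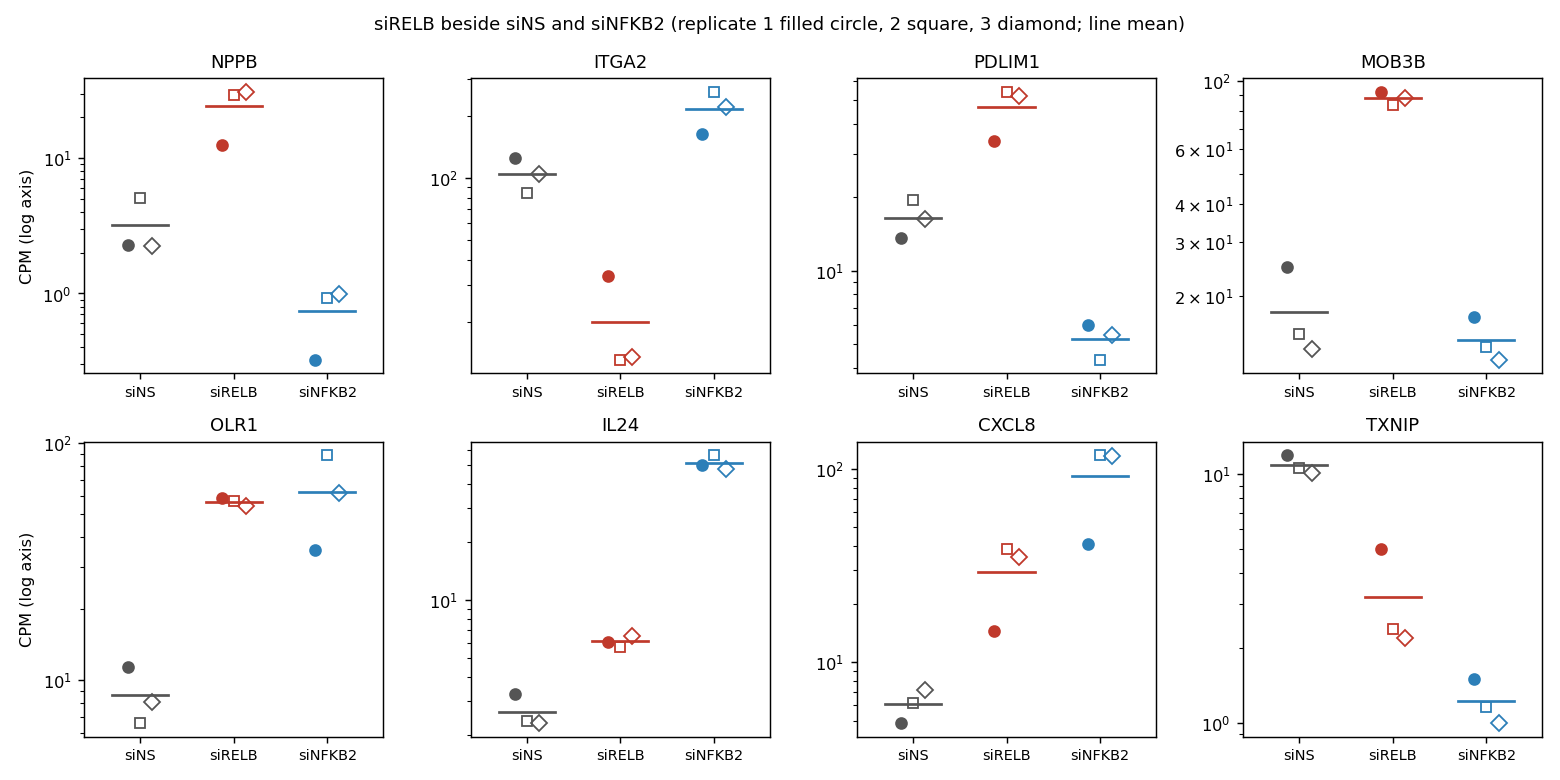
CPM on a log axis of 8 genes in the siNS, siRELB and siNFKB2 libraries, with the group mean as a line. NPPB and PDLIM1 are highest in siRELB and lowest in siNFKB2, ITGA2 is the reverse, and OLR1 is high in both knockdowns.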

How the data were processed

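Polyadenylated RNA of U2OS cells was sequenced on an Illumina instrument, and the authors deposited whole-number counts per gene symbol for each library, with no normalization. The submitters' processing notes list Trimmomatic 0.38, STAR 2.7.1a, Subread 1.6.4 and GRCh38.p13. Tool roles and settings, annotation and strandedness were not given in the sources used here. Groups and replicate numbers came from the labels, which do not state separate cultures for the replicates. The p-values thus reflect only library-to-library spread, possibly technical. Every pair of libraries within a group differed by more than sampling noise (chi-square per degree of freedom from 3.13 upward in siRELB and siNS), so none was a copy.

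Counts were filtered with filterByExpr, scaled by TMM and fitted with edgeR 4.0.16 (R 4.3.3, limma 3.58.1) as 3 group means over all 9 libraries, sharing 1 spread estimate. Contrasts used its quasi-likelihood test, Benjamini-Hochberg adjustment over all genes and no minimum fold. Standard errors are the log2 fold change over the square root of F, and CPM uses TMM-scaled totals. Of the entries, 5005 carry a suffix for further placements, and 58 of them were tested and 0 called. Named genes are RELB, NFKB2 and the other subunits, the 15 largest rises and falls among non-overlapping called genes averaging at least 5 CPM, the 10 smallest adjusted p-values, up to 6 called members of each list and, where none was called, up to 2 with the smallest adjusted p. The gene lists and the members were chosen with earlier results of these data known. Lists were described by counts and medians without a set test. The code was tested on simulated data. DESeq2 1.42.0, other scalings, other filters, the 6 compared libraries alone, a replicate block, summed suffixed entries and leaving out each library were run as alternatives. Gene positions are from GENCODE 29, and promoter starts are from RefSeq. Gene symbols are as the tables give them. Some of the genes this rule names are not reported here.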

Additional observations from a re-analysis of the deposited data

How the results depend on the processing

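The count of calls was the value most dependent on processing. Against 299 calls (179 higher, 120 lower), DESeq2 gave 879 (475 and 404) among 13378 genes with an adjusted p, and the fit on the 6 compared libraries gave 129 (75 and 54). With no filter on low counts 193 genes were lower. With the mitochondrial ribosomal RNA share as a covariate, an alternative added after the data were seen, 1326 were called (763 and 563). Without the 3 libraries numbered 1, also added later, 3390 were called (1639 and 1751), and 6600 genes differed between siRELB and siNFKB2 against 3934. Leaving out 1 library at a time, calls ran from 15 to 1819, higher calls from 6 to 937, lower calls from 7 to 882, and differences from siNFKB2 from 2188 to 4917. RELB ran from -2.93 to -2.44 (adjusted p 0.0015 to 0.0591). Other scalings, the 5 CPM filter and summed suffixed entries stayed within 1.5 times the main count. Of the named genes ITGAM, not called, changed sign, at 0.04 without siRELB replicate 1 against -0.28, with a leave-one-out range of -0.67 to 0.04. The median log2 fold change changed sign under at least 1 alternative in 14 of the 37 lists, all with a median of at most 0.13 in size. Interleukins went from 0.13 to -0.05 without siNS replicate 1, metalloproteinases from -0.13 to 0.08 without siNS replicate 2, extracellular matrix from 0.01 to -0.11 and homologous recombination from -0.02 to 0.05 without siNS replicate 1. Leaving out 1 library, medians ran from -0.66 to -0.23 for TNF ligands and from -0.26 to -0.09 for oxidative phosphorylation. The cause of these shifts was not tested.

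Replicate numbers were not used to pair the libraries in the main fit. Deviations of same-numbered siNS and siRELB libraries correlated at 0.59, 0.38 and 0.04 across genes, and 3 of the 6 libraries correlated best with their own number. Between groups, the libraries numbered 1 correlated at 0.54 to 0.59, so they shared a deviation that the main fit does not model. Numbers 2 and 3 were less clear: siNS replicate 2 correlated at 0.38 with siRELB replicate 2 and at 0.43 with siRELB replicate 3. With a replicate block, 1570 genes were called over 9 libraries (897 higher, 673 lower), with 6054 differing from siNFKB2, and 1539 over the 6 (827 and 712). NFKB2 then passed over the 6 libraries (0.49, adjusted p = 0.0109).

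The 29793 entries that did not pass the filter on low counts were not tested.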

Other observations

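Several called genes outside the lists were chosen after their values were seen, and are given as values of single genes only. CNN1 (calponin) was at 33.9, 52.7 and 48.5 CPM in siNS and at 81, 129 and 123 CPM in siRELB (log2 fold change 1.30, adjusted p = 0.0206), TNNT2 (cardiac troponin T) at 6.15, 11.6 and 8.40 CPM against 17.9, 22.7 and 23.9 CPM (1.30, adjusted p = 0.0292), and ANKRD1 (0.73), TAGLN (0.66) and CSRP1 (0.51) were called too. ACTA2 (smooth muscle actin) was not called (-0.36, adjusted p = 0.37). CLDN1, CGN and LLGL2 were also called higher, CLDN1 (a tight junction protein) at 48.8, 26.9 and 32.4 CPM in siNS and 108, 92.1 and 97.3 CPM in siRELB (1.45, adjusted p = 0.0123). CLDN4, of the same family, averaged 10.9 ± 3.22 CPM in siNS and 8.13 ± 0.961 CPM in siRELB and was not called. Of the 5 epithelial markers tested, 2 were positive and 3 negative, CLDN4 among the 3. Of the called genes named here, TNNT2 and CLDN1 kept their call in 6 of 9 leave-one-out fits, CNN1 in 5, CSRP1 in 4, CGN and LLGL2 in 3, and ANKRD1 and TAGLN in 2.

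Genes of mitochondrial ribosomal proteins were taken by symbol: MRPL or MRPS, a number, and at most a final A, B or L. Symbols with another ending were not counted, and the set was not followed through the alternative fits. Of 73 such genes tested, 4 were called (5.48%, against 2.02% of all genes). MRPL20 (-0.77), MRPS22 (-0.66) and MRPS7 (-0.62) were lower and MRPL50 (0.63) was higher. Of the 73, 65 (89.0%, against 52.0% of all genes) were negative. An unadjusted p under 0.05 was found for 19 (26.0%, against 16.8%). RRS1 (-1.07), NAT10 (-0.85), PNO1 (-0.67) and NOB1 (-0.65), which act in making ribosomal subunits, were called lower. They were picked from the called genes with their values known. Other genes of that role were not counted, so the share of that role called is not known. GFM1, the mitochondrial elongation factor, fell by 0.96 beside its paralog GFM2. NAT10 was measured at 148, 155 and 149.5 CPM in siNS and at 99, 74 and 77.7 CPM in siRELB, and kept its call in 6 of 9 leave-one-out fits; the other 8 of these genes kept theirs in 2 to 4. HAS2, which makes hyaluronan, was low, at 1.84, 1.25 and 2.20 CPM in siNS and at 0.768, 0.271 and 0.547 CPM in siRELB (-1.72, adjusted p = 0.0487). It kept its call in 1 of 9 leave-one-out fits. HAS2-AS1, which overlaps 4.8% of the exonic length of HAS2 on the opposite strand, was also called lower (-1.93). Strand use in counting is not known, so the 2 genes may share reads. KDELR2 was called higher (0.56, adjusted p = 0.0394) where its paralog KDELR1 fell, with the call kept in 2 of 9.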
